A study of Mus musculus with 2 samples.

Results

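The transforming growth factor beta (TGF-beta) system was described through 9 genes: the ligands Tgfb1, Tgfb2 and Tgfb3, the signalling receptors Tgfbr1, Tgfbr2 and Acvrl1, the co-receptors Tgfbr3 and Eng, and the inhibitory Smad gene Smad7. They were chosen by name, as those genes among 20887 on the array to which the RefSeq accession of a probe leads, and all 9 were found, through 12 probes and 30 spots. Expression was measured in primary pericytes from the cavernous tissue of the penis of C57BL/6 mice, the contractile cells that wrap small vessels. All cells were grown in DMEM with serum, antibiotics and human pigment epithelium-derived factor, a secreted protein, and then kept for 72 h in normal glucose, given as 5 mmol, or in high glucose, given as 30 mmol, with no volume stated. For each condition a pool of the RNA of 3 samples went onto 1 Agilent 1-colour array. With 1 array per condition no test across samples exists, no p-value is given, and each difference below is one between these 2 pools. An osmotic control was not analysed here.

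TGF-beta ligands are secreted in a latent form, and once freed they bind the receptor TGFBR2, which recruits and phosphorylates TGFBR1 (also called ALK5). TGFBR1 then phosphorylates SMAD2 and SMAD3, which enter the nucleus with SMAD4 and switch on matrix genes, contractile genes and their own inhibitor, SMAD7. In vessels the pathway is known for guiding pericyte and smooth muscle differentiation, and raised TGF-beta activity is a textbook feature of kidney cells exposed to high glucose.

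The sequences just before the start sites of Tgfb1 and Tgfb2 hold different core promoter letters. RefSeq promoter windows of the GRCm38.p6 build were at hand for 5 of the 9 genes (Tgfb1, Tgfb2, Tgfbr1 with 2 windows, Tgfbr2 and Eng). The 250 bases before the start are shown for Tgfb1 (chr7:25686752-25687001, plus strand) and Tgfb2 (chr1:186705990-186706239, minus strand), the ligands for which such a window was at hand, of which the former had a ratio near 0 and the latter the lowest ratios of the ligands. Capitals mark the GC box GGGCGG on either strand in Tgfb1, and the E-box CACGTG and the TATA box TATAAA in Tgfb2.
Tgfb1: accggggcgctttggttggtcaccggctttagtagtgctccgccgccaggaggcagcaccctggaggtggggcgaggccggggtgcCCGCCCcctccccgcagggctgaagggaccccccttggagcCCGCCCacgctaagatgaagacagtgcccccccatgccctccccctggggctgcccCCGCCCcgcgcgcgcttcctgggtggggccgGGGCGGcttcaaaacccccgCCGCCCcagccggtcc
Tgfb2: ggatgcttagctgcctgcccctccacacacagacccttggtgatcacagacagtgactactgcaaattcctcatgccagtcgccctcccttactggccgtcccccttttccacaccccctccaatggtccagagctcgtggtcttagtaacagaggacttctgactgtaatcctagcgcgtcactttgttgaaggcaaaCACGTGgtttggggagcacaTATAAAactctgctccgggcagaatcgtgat
The Tgfb1 window was 75.2% G or C and held 5 GC boxes, at positions -164, -123, -67, -36 and -16 from the start (first base of each), and no TATAAA. The Tgfb2 window was 53.6% G or C, with CACGTG at -51, TATAAA at -31 and no GC box. Searched on both strands, with no overlap among the matches marked, GGGCGG was present at least once in 32.7% of all 32851 promoter windows of this length and at least 5 times in 1.93%, TATAAA in 12.4% and CACGTG in 6.02%. The binding motif of Smads, CAGAC, was found 2 times in the Tgfb2 window, 2 times in that of Eng, once in that of Tgfbr2, once in 1 of the windows of Tgfbr1 and 0 times in that of Tgfb1, and 42.2% of all windows held it. The motifs were chosen after the sequences were seen, and a match describes letters, not a bound site.

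Transcripts of the TGF-beta ligands, receptors and Smad7 were nearly level between the pools. All 9 genes had usable signals on both arrays, which means well above background and not saturated. Their log2 ratio of high over normal glucose ran from -0.15 for Acvrl1 to 0.03 for Tgfbr3, with a median of -0.03. By its brightest probe, none of the 9 was higher or lower by 1.2-fold. Over all 14178 genes measured, 6.8% were higher and 5.52% lower by at least that much, and the median was -0.0073. Of the 9 genes, 3 were higher and 6 lower in high glucose, or 0 and 9 when each array was centred on its median in place of its 75th percentile, which lowers all ratios by 0.06. With that centring the all-gene counts past 1.2-fold turned from 964 higher and 782 lower to 711 and 1193. In bulk RNA such as this, fewer cells of a type and less RNA per cell cannot be told apart.

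**Figure D1:**
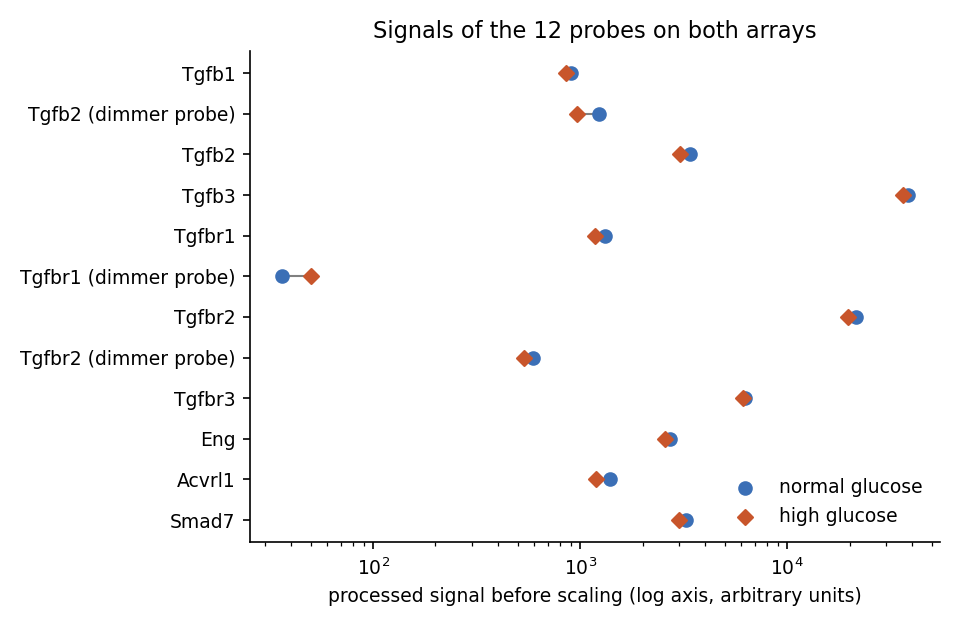
Processed signal of each of the 12 probes (x axis, log scale, arbitrary units, before scaling) on the normal glucose array (circles) and the high glucose array (diamonds). In 11 of 12 probes the high glucose point lies to the left; signals of different probes are not comparable as transcript levels.

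The raw signals lay mostly on the low side in high glucose, as did the array as a whole. Before scaling, 11 of the 12 probes were dimmer on the high glucose array. The 75th percentile over all probes was also lower there, 733 against 774, which is a shift of 0.08 on the log2 scale. After dividing it out, 8 of the 12 probes remained lower. Error was read from probes printed 10 times on each array: the log2 ratio of a single spot had a median SD of 0.044 at signals from 512 to 4096 and 0.032 above 4096, but 0.29 below 128. This spread covers spot error on the array and not the differences between cultures.

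Among the ligands, Tgfb1 and Tgfb3 gave the most precise values, since each was printed 10 times. Tgfb1, the most widely expressed isoform and the one tied to fibrosis, had a signal with a lowest, median and highest spot of 848, 895 and 956 in normal glucose and of 824, 849 and 909 in high glucose. The spot ranges of the arrays overlapped for most of their length, and 5 spots were higher and 5 lower after scaling. Its mean log2 ratio was 0.012 ± 0.070 (SD, n = 10 spots), with a 95% interval from spot error alone of -0.038 to 0.062. In fold terms that interval runs from 0.974 to 1.04. It leaves out error shared by the spots of an array, so it does not bound the difference between the pools. By the median pixel of the spots, less local background, the log2 ratio was -0.08, outside the interval. The median of all genes was then -0.11. The scanner software's own errors, combined over both arrays, came to 0.20 for this log2 ratio.

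Tgfb3, an isoform known from palate and lung development, had spots of 35967 at the lowest, 39090 at the median and 39711 at the highest in normal glucose. In high glucose they were 35032, 36121 and 37667. All 10 spots were dimmer in high glucose before scaling, while after scaling 4 were higher and 6 lower. The mean log2 ratio was -0.0029 ± 0.040 (SD, n = 10 spots), with a 95% interval from spot error of -0.032 to 0.026. The drop of the raw Tgfb3 spots was thus, within spot error, of the size of the shift of the 75th percentile, but it was larger than the shift of the array medians, since with median centring the log2 ratio was -0.06.

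**Figure D2:**
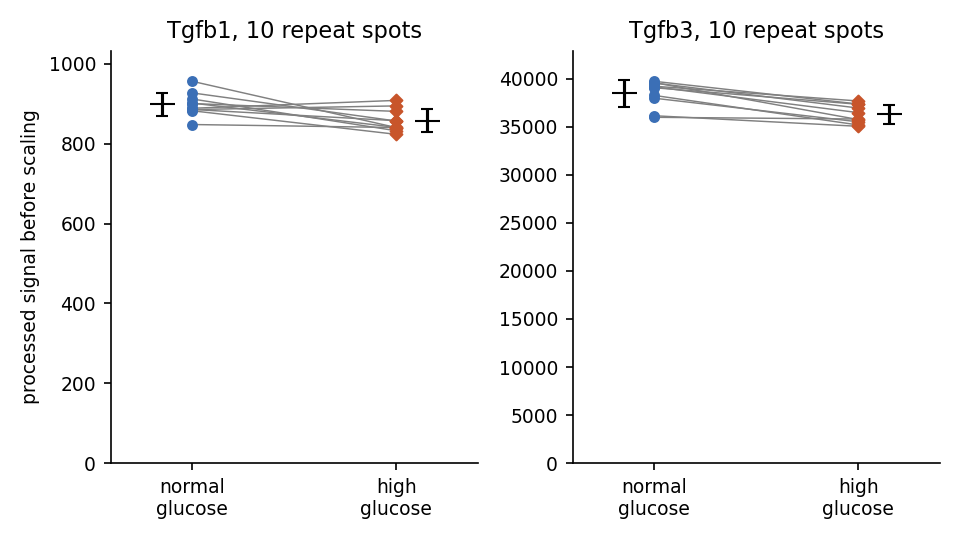
Processed signal before scaling (y axis from 0) of the 10 repeat spots of the Tgfb1 probe (left) and the Tgfb3 probe (right), with lines joining the same spot position on the normal (circles) and high glucose (diamonds) arrays and black marks for mean ± SD of the spots. All 10 Tgfb3 lines and 8 of 10 Tgfb1 lines fall slightly.

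Tgfb2, the isoform known from heart and eye development, had the lowest ratios of the ligands. Its brighter probe read 3399 in normal and 3044 in high glucose, a log2 ratio of -0.08, or 1.8 times the repeat-spot SD of its signal range. Its dimmer probe, which carries the same RefSeq accession, read 1229 and 970, a log2 ratio of -0.26, or 5.95 times that SD, which was 1.199-fold lower. Both probes were thus lower in high glucose, by unequal amounts. The gap between them, 0.18, was 2.93 times the SD expected from repeat spots, and 26.6% of the 3632 genes with a second measured probe had a gap at least as wide. Of 4875 genes in the same signal range, 25.3% had a ratio at or below that of the brighter probe and 2.36% one at or below that of the dimmer probe. The scanner software gives an error for each signal, and combined over both arrays these come to an error of 0.20 for the log2 ratio. The ratio of the dimmer probe was larger than that, and that of the brighter probe was not.

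Both receptors of the core complex were slightly lower, each by less than 1.1-fold in its brighter probe. TGFBR2 is the receptor that binds the ligand at the cell surface and starts the signal. Its probes read 21559 and 595 in normal glucose and 19560 and 536 in high glucose. The log2 ratios of these Tgfbr2 probes, -0.06 and -0.07, differed by 0.0094, less than the SD of 0.054 expected from repeat spots. This gene thus had a matching value from separate probes, at 1.89 and 1.59 times the repeat-spot SD.

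The probes of Tgfbr1, the kinase that phosphorylates SMAD2 and SMAD3, disagreed. The brighter probe read 1314 in normal and 1185 in high glucose, a log2 ratio of -0.07. The dimmer one read 36.1 and 50.3, a log2 ratio of 0.56. At signals below 128 the repeat-spot SD was 0.29, so this value was 1.94 times the SD, and by the median pixel of the spot, less local background, the log2 ratio was 0.13. Only 3.25% of genes with a second probe had a gap between probes as wide as that of Tgfbr1, 0.63. The direction for Tgfbr1 therefore depended on the probe: the gene was lower by its brighter probe and had a log2 ratio of 0.24 by the median over both.

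**Figure D3:**
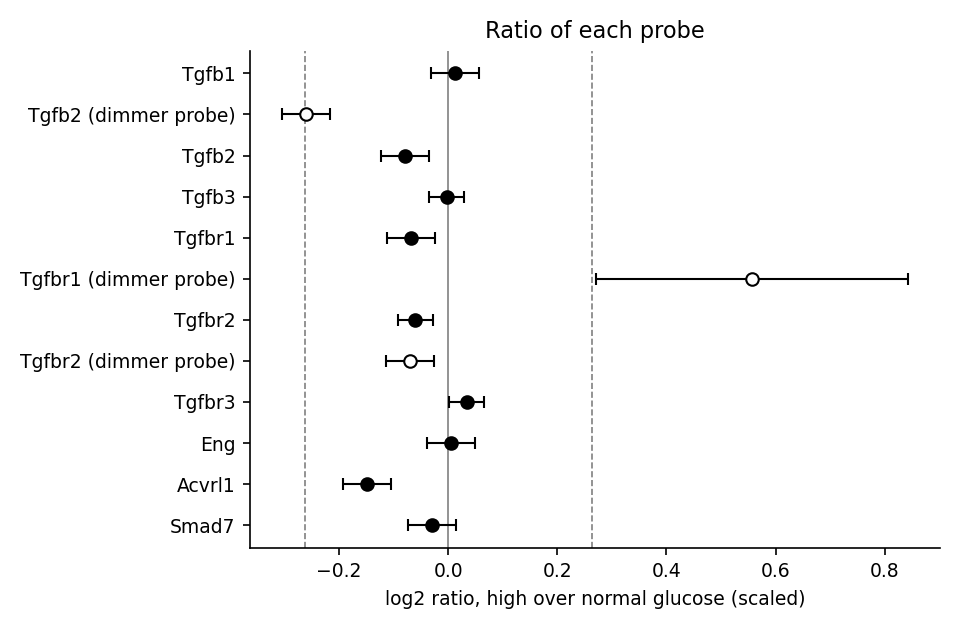
Log2 ratio of high over normal glucose after scaling (x axis) for each of the 12 probes, filled for the brightest probe of a gene and open for the dimmer one. Bars are ± 1 SD of a single repeat spot in the same signal range and dashed lines mark 1.2-fold; the filled points all lie between -0.15 and 0.03.

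Acvrl1 (ALK1) had the largest difference of the 9 genes when each was read from its brightest probe; the dimmer probes of Tgfb2 and Tgfbr1 differed by more. It encodes a receptor that binds BMP9 and BMP10, signals through SMAD1 and SMAD5 and is known mainly from endothelium. It read 1398 in normal glucose and 1192 in high, which is 1.11-fold lower (log2 ratio -0.15). That is 3.4 times the repeat-spot SD, and among the brightest probes of the 9 genes that of Acvrl1 was the only 1 beyond 2 times it. The ratio stayed within the error of 0.20 combined from the software's errors of its signals, and 9.74% of genes in the same signal range had a ratio as low or lower. It rested on 1 spot of 1 probe.

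The co-receptors hardly differed. Eng, endoglin, which pairs with ALK1 and is likewise an endothelial gene, read 2705 in normal and 2569 in high glucose, a log2 ratio of 0.0053. Tgfbr3, betaglycan, which presents the ligand and above all TGF-beta 2 to TGFBR2, read 6281 and 6083, a log2 ratio of 0.03. Both ratios were within 1.05 times the repeat-spot SD. Of 10 endothelial markers, read because Eng and Acvrl1 are known from endothelium, 6 were at background on both arrays, among them Cdh5 (VE-cadherin), Tek and Tie1. Of the other 4, Pecam1 read 84.6 and 90.0, Vwf 74.0 and 48.5, Flt1 1432 and 1146, and Kdr 7379 and 7075. The summed signal over the 10 markers was 9022 and 8414. These signals are before scaling, which raises the high glucose array by 0.08 on the log2 scale. The part of endothelial cells in the values of Acvrl1 and Eng was not tested.

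Smad7, the inhibitor that blocks the receptor and is itself induced by TGF-beta signalling, read 3225 in normal and 2989 in high glucose. Its log2 ratio of -0.03 was 0.68 times the repeat-spot SD, and 76.3% of genes in the same signal range differed by at least as much. The Smad7 value rested on 1 spot and moved with the background treatment. Its log2 ratio was -0.085 with another treatment (normexp) and -0.17 by median pixels. The medians of all genes were then -0.019 and -0.11. Whether the activity of the pathway differed between the pools was not tested.

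The sign of such small ratios depended on the scaling for several genes. Over 10 ways of processing, Tgfb2, Tgfbr2, Acvrl1 and Smad7 were lower in high glucose in all 10. Tgfb3 was lower in 9 and Tgfbr1 in 9, while Tgfb1 was higher in 8, Tgfbr3 in 7 and Eng in 7. The widest range was that of Tgfbr1, from -0.13 to 0.24, and Acvrl1 ran from -0.26 to -0.14. In none of the 10 did any of the 9 genes reach 1.2-fold by its brightest probe or the median over its probes. Single dimmer probes did pass it. That of Tgfbr1 was 1.47-fold higher as reported, and that of Tgfb2 had a log2 ratio of -0.38 by median pixels.

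**Figure D4:**
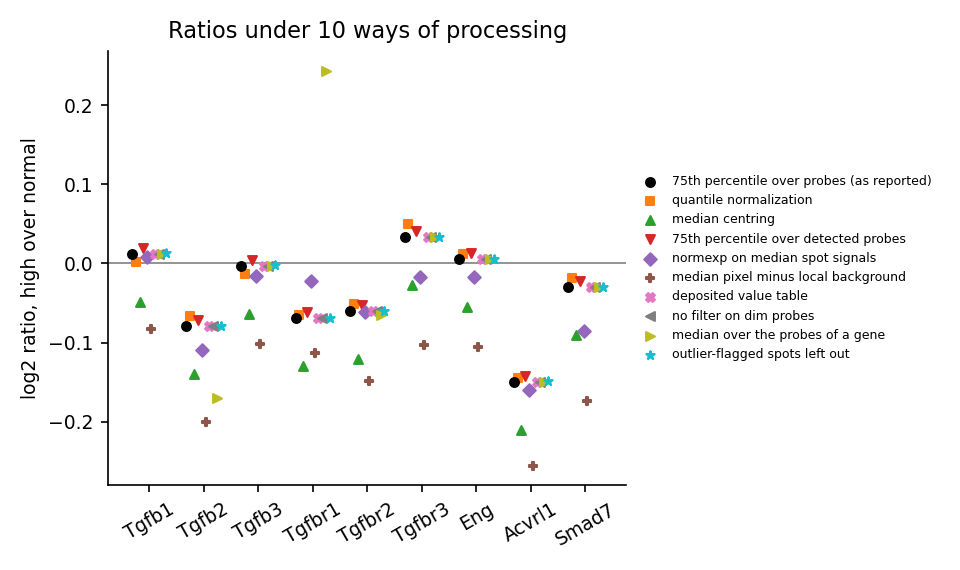
Log2 ratio of high over normal glucose (y axis) of each of the 9 genes under 10 ways of processing the arrays, black circles being the values reported. Median centring and median pixel signals move all 9 genes down together, and no point but that of Tgfbr1 by the median over its probes exceeds 0.05.

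The wider pathway was read from 6 lists with 134 genes other than the 9, of which 124 were measured. Of these, 7 were higher and 7 lower by at least 1.2-fold, 11.3% against 12.3% of all genes measured. With median centring 5 were higher and 8 lower (4.03% and 6.45%, against 5.01% and 8.41% of all genes). With median pixels 3 were higher and 17 lower (2.42% and 13.7%, against 3.29% and 13.1% of all genes). In the reported scaling 2 were higher and 1 lower by 1.5-fold, together 2.42% of them. Of all genes 1.62% were higher and 1.19% lower by that much, together 2.81%. The pathway as listed thus held about as many differing genes as the arrays as a whole, and its median log2 ratio was -0.015.

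Genes that store and release the latent ligand were level apart from Emilin1. In this list 23 of 25 genes were measured, with 10 higher and 13 lower and a median of -0.012. The lowest ratio was that of Ltbp4, -0.185, and the highest after Emilin1 that of Fbn2, 0.17, both named after their values were seen. By median pixels 1 of the 23 was higher and 5 lower by 1.2-fold, against 3.29% and 13.1% of all genes. Emilin1, an elastic fibre protein that restrains the processing of the TGF-beta precursor, read 540 in normal and 807 in high glucose. It was 1.58-fold higher (log2 ratio 0.66), and just short of 1.5-fold by other background treatments, at 0.58 with normexp and 0.54 with median pixels. The latency protein Ltbp1, which anchors the ligand in the matrix, had a log2 ratio of -0.04, and Thbs1, thrombospondin 1, an activator of latent TGF-beta, 0.08.

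Among receptor partners and regulators, 20 of 22 were measured, with 6 higher and 14 lower and a median of -0.03. Cd109, a membrane protein that binds TGF-beta and dampens its receptors, read 7359 in normal and 5059 in high glucose. It was 1.38-fold lower, with a log2 ratio of -0.46 from 1 spot, many times the repeat-spot SD of 0.032 at this signal. Over the 10 ways of processing the ratio of Cd109 ran from -0.56 to -0.45. Ldlrad4, an inhibitor that keeps SMAD2 and SMAD3 from the receptor, had the next largest ratio by brightest probes, at 0.15. Dimmer probes of Wwp1 and Lemd3, looked up afterwards, had 0.68 and 0.21, against -0.04 and -0.02 by their brightest probes. The other dimmer probes of this list lay between -0.14 and 0.14. Bambi, a decoy receptor named after its values were seen, was at background in both pools, with signals of 6.25 and 5.51. Lrg1, the other gene of this list not measured and also looked up afterwards, was well above background on the high glucose array only. Its signal there was dim, below 128. It was left out because the filter asks for both arrays.

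The Smads that carry the signal showed no difference of 1.2-fold. All 19 genes of the list of Smads and nuclear cofactors were measured, 11 higher and 8 lower, with a median of 0.015, or -0.05 with median centring. Smad2, Smad3 and Smad4, named after their values were seen, had log2 ratios of -0.05, 0.02 and -0.03. The largest ratios were those of Foxh1, a Smad partner in nodal signalling, and Trim33, which binds SMAD2 and SMAD3 and opposes SMAD4. Foxh1 was dim, 36.2 in normal and 49.7 in high glucose, with a log2 ratio of 0.54 against a repeat-spot SD of 0.29. Trim33 read 531 and 643, a log2 ratio of 0.36 against an SD of 0.044.

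Transcriptional targets of TGF-beta stayed within 1.2-fold by their brightest probes, apart from Il11. All 30 were measured, with 16 higher and 14 lower and a median of 0.011. Il11, interleukin 11, a cytokine that fibroblasts release in response to TGF-beta, read 421 in normal glucose and 980 in high. It was 2.46-fold higher from 1 spot, and its log2 ratio of 1.30 ran from 1.11 to 1.31 over the 10 ways of processing. At 1.2-fold 1 of the 30, Il11, was higher and 0 were lower, against 6.8% and 5.52% of all genes. The lower count was 1 with median centring, normexp or the median over probes, where 8.41%, 3.35% and 5.61% of all genes were lower. With median pixels it was 3, where 13.1% of all genes were lower. Other known targets had small ratios: Ccn2 (connective tissue growth factor) -0.07, Tgfbi 0.10, the collagen gene Col1a1 0.04 and Acta2 (alpha smooth muscle actin) 0.02. The largest after Il11, named after their values were seen, were Bhlhe40 at -0.25 and Postn at 0.20. Dimmer probes of Tsc22d1, Lox and Cdkn2b had -0.49, -0.27 and -0.24, while those of Skil, Pmepa1, Smurf2 and Nox4 lay between 0.0025 and 0.14. With median centring the signs of Col1a1 and Acta2 turn and the median of the list becomes -0.05.

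BMP and activin genes, the sister branch of the family, held the largest share of genes past 1.2-fold among the 6 lists. Of 33, 28 were measured, with 11 higher and 17 lower and a median of -0.05. At least 1.2-fold differences were found in 28.6% of them, 2 higher and 6 lower, against 12.3% of all genes, a description for which no test was made. Bmp5, Bmp6, Gdf6 and Nodal, 4 of these 8 and named after their values were seen, had signals below 128, where the repeat-spot SD of 0.29 is wider than 1.2-fold. With normexp the counts were 0 higher and 4 lower of the 28, against 3.90% higher and 3.35% lower of all genes. In the reported scaling the share at 1.5-fold was 3.57%, which is 1 gene, against 2.81% of all genes. The list of latency and activation had 4.35% there, also 1 gene. Nog, noggin, which binds and blocks BMPs, read 285 in normal and 99.7 in high glucose, 2.71-fold lower, with a log2 ratio of -1.44 (between -1.50 and -0.97 over the 10 ways of processing). Of the other 5 lower genes 2, also singled out afterwards, were bright: Bmp4, a ligand made by vessel walls, read 9445 and 7339, a log2 ratio of -0.28. Inhbb, the beta B subunit of activins and inhibins, read 6215 and 4753, a log2 ratio of -0.31. Gdf5, higher and also named afterwards, read 170 and 198, a log2 ratio of 0.31, with 0.43 by its dimmer probe. The dimmer probe of Acvr2a had -0.60, against -0.17 by its brightest probe. Those of Bmpr1b and Acvr1 had -0.14 and 0.15. Gdf2, the gene of the ALK1 ligand BMP9, was at background in both pools.

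Targets of BMP and ALK1 signalling, read because ALK1 signals through this branch, had ratios whose sign turned with the scaling of the arrays. Of 13, 12 were measured, with 9 higher and 3 lower and a median of 0.04, while 46.8% of all genes were higher. With median centring 4 were higher and 8 lower (median -0.02), while all genes had a median of -0.07 and 3870 of 14178 were higher. By median pixels 2 were higher and 10 lower (median -0.09), while all genes had a median of -0.11 and 2704 were higher. The list median was above that of all genes in both settings and in the reported one, where that of all genes was -0.0073. No test of this was made. Id1, the classical early target, had a log2 ratio of 0.0093 and Smad6, the inhibitory Smad of this branch, 0.05, and both turn negative with that centring. The largest ratios were those of Dlx5, a bone transcription factor, at 0.27, with dim signals of 90.8 and 103, and Atoh8, a transcription factor induced through ALK1, at 0.23, from 833 and 923. By median pixels these fell to 0.07 and 0.05. Hey2, the gene of this list not measured, was looked up afterwards. It was well above background on the high glucose array only, with a dim signal.

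**Figure D5:**
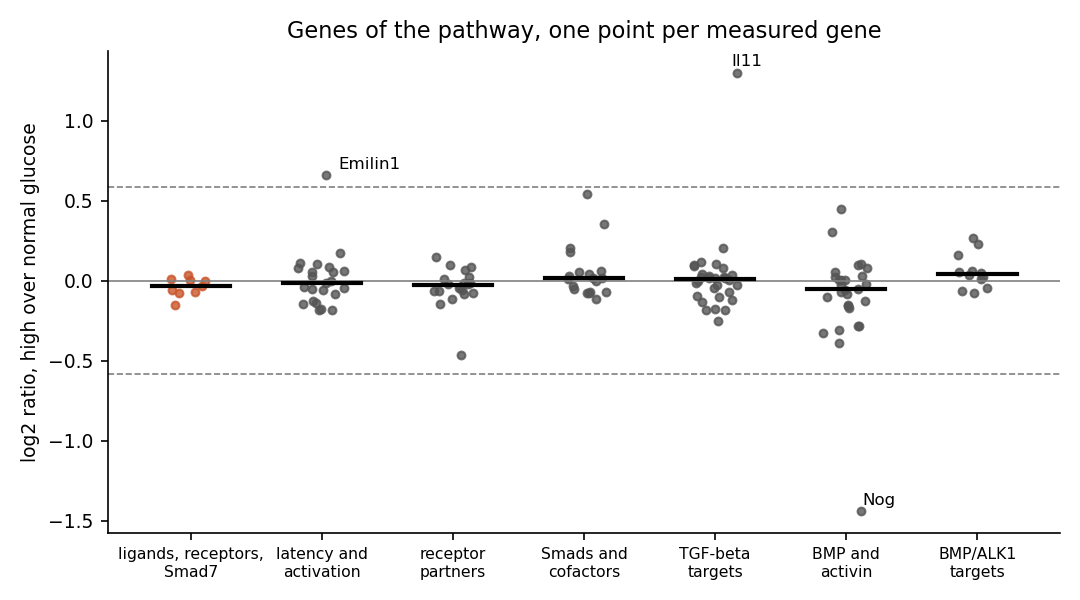
Log2 ratio of high over normal glucose (y axis) of the 9 genes (orange) and of the measured genes of 6 pathway lists (grey), 1 point per gene with random sideways placement, black bars for the list medians and dashed lines at 1.5-fold. Emilin1, Il11 and Nog lie outside the dashed lines, while the 9 genes lie within -0.15 to 0.03.

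As for the arrays as a whole, gene spots stood well above background in 56.3% of cases under normal and in 57.6% under high glucose, and 0 were saturated. The 9 measured among 11 pericyte markers had a median log2 ratio of 0.0047, with 5 higher and 4 lower. By median pixels 2 were higher and 7 lower, with a median of -0.21. With normexp their median was -0.05, where that of all genes was -0.019. Pdgfrb, a receptor gene used as a pericyte marker, had a log2 ratio of 0.14, or -0.0074 by median pixels. Cspg4 (NG2) had -0.20 and the dim Rgs5 0.58, while Kcnj8 and Vtn were at background. Of the rest, looked up afterwards, the dim Abcc9 had -0.45, Anpep -0.14 and Cd248 -0.10. Notch3 had 0.15, Higd1b 0.06 and Mcam 0.0047. All 8 smooth muscle markers were measured, 7 of them higher, or 4 by median pixels, with a median of 0.09, or -0.015 by median pixels. Of 8 fibroblast markers 6 were measured, 5 of them lower, with a median of -0.12. Of 9 immune markers 7 were measured, all 7 higher with a median of 0.12. By median pixels 2 were higher and 5 lower, with a median of -0.022. The median of all genes was -0.0073 as reported and -0.11 by median pixels, where 2704 of 14178 genes were higher. Itgam, looked up afterwards, had a log2 ratio of 0.12 by its brightest probe and -0.49 and -0.22 by its other probes. The other probes of Csf1r had 0.03 and -0.135, and that of Adgre1 0.13. Before scaling, the summed signals in normal and high glucose were 118038 and 108412 for pericyte and 652043 and 630379 for smooth muscle markers. They were 237601 and 217793 for fibroblast and 31592 and 32751 for immune markers. The 75th percentile over all probes was likewise lower in high glucose before scaling, 733 against 774. The part of these cell types in the values of the 9 genes was not tested.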

How the data were processed

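The deposited intensity values come, per the file headers, from Feature Extraction 11.5.1.1 applied to 1-colour Cy3 scans of an Agilent array designed on build mm9; version 9.3.2.1 of this program is the one given in the submitters' processing notes. Per the file headers, the processed signal has background subtracted and is detrended within each array, and it is not scaled between arrays; low values are small positive surrogates. The 0 or 1 spot flags come from the same software, and the value table deposited by the authors gave the same intensity for the 12 probes.

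From the 59305 gene spots (3671 control spots left out), the log2 of the processed signal was averaged over spots of a probe, and the 75th percentile over 55681 probes was subtracted. Probes were named through unversioned RefSeq accessions in the GRCm38.p6 gene table; 27509 matched 1 symbol, 28172 none. A gene was taken from its brightest probe that was well above background (at least 0.5 of its spots) and unsaturated on both arrays. The error of a spot was read from 283 probes printed 10 times. Counting steps were tested on simulated data. Tools were Python 3.11.15, R 4.3.3 and limma 3.58.1.

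The genes and lists were chosen with earlier results of these data known. The text names all 9 genes with every probe, in each list the members past 1.5-fold (at most 4) or else the 2 largest, and set examples, of which 1 is not reported here. Alternatives were quantile normalization, median centring, a 75th percentile over detected probes, normexp with an offset of 50, median pixels less local background, the deposited table, no dim filter, the median over probes, and flagged spots left out. Normexp used the median spot signal, since these files hold no mean signal. The number of arrays limits the precision.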

Additional observations from a re-analysis of the deposited data

How the results depend on the processing

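By its brightest probe or the median over its probes, no gene of the 9 reached 1.2-fold in either direction under the 9 alternatives. The median log2 ratio of the 9 genes, -0.03 as reported, was -0.091 with median centring and -0.11 with median pixels less local background. Those settings moved the median of all genes too, to -0.07 and -0.11, from -0.0073. Under the other 7 alternatives it stayed within the repeat-spot SD of 0.046, and the highest value was -0.0029, with the median over probes. The medians of all 6 pathway lists moved by more than that SD with median centring and with median pixels, and none did under the other 7. The count of genes at least 1.5-fold different moved in 1 list with normexp, in 1 with median pixels and in 3 with no filter on dim probes. No paired analysis was possible because each condition has 1 array, and leaving out a replicate was not possible for the same reason. Differences near or below the spot error, 0.29 on the log2 scale at signals below 128, cannot be resolved here.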
